A study of Homo sapiens with 18 samples.

Results

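RNA levels of 44 genes of TGF-beta, activin and BMP signalling were followed in spheroids of MDA-MB-231 cells, a triple-negative breast cancer line, with high or low JAG1. The genes were fixed by symbol as 7 ligands, 4 latent TGF-beta binding proteins, 10 receptors, 6 signalling SMADs, 9 intracellular and membrane inhibitors, 5 secreted ligand-binding proteins and 3 ID targets, and all 44 were found among the 21411 genes of the tables. Of the 44 genes, 38 were above 1 CPM (read counts scaled to library size) in at least 9 of the 18 libraries and were tested among 12757 genes. The 6 genes below this level were INHBB, SMAD6, SMAD9, GREM1, ID2 and ID3.

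The 6 conditions had 3 libraries each, all from cultures of 50000 cells seeded in 600 µl of Matrigel at 2 mg/ml and grown for 7 days. Jag1WT was the parental line. Jag1KO was a mixture of single-cell clones made with Cas9 and a guide to JAG1, and it carried the knockout into Jag1KO + rescue, which received a plasmid with the Jagged1 cDNA, and into Jag1KO + ctrl, which received the empty plasmid. Both plasmid lines were kept under G418. Parental cells transfected with a control siRNA (siCtrl) or with siRNA to JAG1 (siJag1) 7 h before seeding made up the last pair. The labels number the replicates as biological replicates but do not say which cultures shared a day, and p-values therefore measure the spread between these libraries. With 3 libraries against 3, no two-sided exact permutation test on 1 gene can go below p = 0.1, so the model fitted over all genes was used.

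TGF-beta is secreted bound to its own propeptide, and latent TGF-beta binding proteins hold this complex in the extracellular matrix until it is activated. Free TGF-beta, activin or BMP dimers bring together type II and type I receptor kinases, the type I receptor phosphorylates receptor SMADs, and these enter the nucleus with SMAD4. SMAD2 and SMAD3 serve TGF-beta and activin, SMAD1, SMAD5 and SMAD9 serve BMP, and inhibitory SMADs, SMURF ubiquitin ligases, SKI proteins and secreted antagonists such as follistatin limit the signal. In breast cancer cells TGF-beta is known for its part in epithelial-mesenchymal transition and invasion.

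The sequences before the starts of the 4 genes that were called in at least 1 JAG1 comparison are shown because they are where promoter motifs of the Notch and SMAD pathways could be read. Each line gives the 250 bases before the annotated RefSeq start, 5′ to 3′ on the strand of the gene (GRCh38.p14). Capitals mark GTGGGAA, the core bound by the Notch cofactor RBPJ, or CAGAC, a SMAD binding element, on either strand, so that GTCTG is CAGAC read on the other strand. The windows are TGFBR1 at chr9:99104863-99105112, LTBP3 at chr11:65558360-65558609 on the minus strand, LTBP1 at chr2:32946703-32946952 and FST at chr5:53480379-53480628.
TGFBR1: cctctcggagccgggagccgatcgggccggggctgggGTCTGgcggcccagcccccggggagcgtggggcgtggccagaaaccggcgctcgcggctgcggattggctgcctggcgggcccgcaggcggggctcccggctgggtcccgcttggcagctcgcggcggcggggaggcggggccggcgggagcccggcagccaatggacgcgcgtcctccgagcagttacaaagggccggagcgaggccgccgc
LTBP3: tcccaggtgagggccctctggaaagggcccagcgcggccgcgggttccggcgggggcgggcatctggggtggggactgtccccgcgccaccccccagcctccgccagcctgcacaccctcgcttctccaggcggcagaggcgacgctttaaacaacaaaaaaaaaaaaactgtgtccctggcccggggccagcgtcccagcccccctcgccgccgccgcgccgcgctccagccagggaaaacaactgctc
LTBP1: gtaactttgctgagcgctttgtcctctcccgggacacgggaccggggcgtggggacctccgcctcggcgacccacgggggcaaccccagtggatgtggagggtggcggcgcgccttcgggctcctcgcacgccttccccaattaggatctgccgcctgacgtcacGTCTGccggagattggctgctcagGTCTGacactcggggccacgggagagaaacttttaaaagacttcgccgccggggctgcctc
FST: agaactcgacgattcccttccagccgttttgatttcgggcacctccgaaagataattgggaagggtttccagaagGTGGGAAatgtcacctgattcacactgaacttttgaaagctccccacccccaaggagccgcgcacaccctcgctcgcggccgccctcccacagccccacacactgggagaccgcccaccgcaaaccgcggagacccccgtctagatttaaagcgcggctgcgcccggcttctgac

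FST held 1 RBPJ core beginning 175 bases before the start, TGFBR1 held 1 SMAD element and LTBP1 held 2, while LTBP3 held neither motif. Windows were found for 41 of the 44 genes. The RBPJ core was in 2 of them, FST and TGIF1 (4.88%), and in 5.46% of all 27305 windows. The SMAD element was in 15 of the 41 windows (36.6%) and in 37.8% of all. For each motif the share among these genes was thus near that among all windows. A match describes letters and does not show a bound site.

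The libraries held between 10330581 and 18327890 reads on genes (median 15168000). VIM, CD44, EGFR, KRT8 and KRT18, which mark these cells, reached 4946, 559, 548, 149 and 162 CPM, and of 3 receptors low or lost in triple-negative cancers ESR1 stayed at or below 0.136 CPM, PGR reached 1.77 and ERBB2 was at 32.5 to 60.0 CPM. Of 7 fibroblast markers, 5 were at or below 1 CPM in all libraries, and the 7 summed to between 3.34 and 10.9 CPM. Of 5 markers of blood and endothelial cells, PTPRC and CDH5 stayed at or below 0.196 and 0.0955 CPM, while CD68 was at 88.9 to 209 CPM, PECAM1 reached 15.1 and HBB 7.68. This list summed to 96.9 to 227 CPM, with its highest sum in Jag1KO + ctrl, and its part in the results was not tested. A set of 5 libraries stood apart by the mean log2(CPM + 1) of 21 cell cycle genes, which was 5.96 to 6.84 in Jag1KO replicates 2 and 3, Jag1KO + ctrl replicates 1 and 2 and siJag1 replicate 2, and 4.44 to 5.50 in the other 13. All 5 come from JAG1-low conditions, so that this difference and JAG1 cannot be told apart by design alone. Counts and values below are therefore also given without these 5 libraries, from a fit of the other 13 over all 6 conditions. There Jag1KO and Jag1KO + ctrl keep 1 library each, whose spread is assumed to be that of the other groups. The main single comparisons were fitted on the 6 libraries of a pair. For a single pair both the libraries and the fit thus differ, and a lost call cannot be laid to the 5 libraries alone.

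JAG1 itself (chr20:10637684-10673999, hg38), the targeted gene, was read at 433, 585 and 522 CPM in Jag1WT and at 116, 205 and 149 CPM in Jag1KO. It was at 534, 657 and 646 CPM in Jag1KO + rescue and at 110.2, 134 and 147 CPM in Jag1KO + ctrl. It was at 441, 626 and 531 CPM in siCtrl and at 166, 203 and 131 CPM in siJag1. The groups did not overlap in any of the 3 comparisons, and the labels were borne out in every library. The log2 fold change was 1.71 ± 0.22 (SE, n = 3 and 3, adjusted p = 0.0179, edgeR quasi-likelihood) for the knockout pair, 2.22 ± 0.18 (adjusted p = 0.0229) for the rescue and 1.68 ± 0.19 (adjusted p = 0.112) for the siRNA pair. Under alternative settings the call of JAG1 was lost 4 times in the knockout pair and 5 times in the rescue, and gained 6 times in the siRNA pair. With any Jag1KO + rescue library left out, the rescue pair called 0 of the 12757 genes, so JAG1 itself was missed there. In the siRNA pair the replicate numbers paired the libraries, and with the replicate block the adjusted p was 0.0189 at a log2 fold change of 1.69.

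Levels between genes were compared per length, as RPKM. TGFBR2, the type II receptor of TGF-beta, had the highest level of the 38 genes with a mean of 229 RPKM over 18 libraries, above 98.4% of the genes tested. The ubiquitin ligase SMURF2 followed at 51.8 RPKM, then LTBP1 at 38.6, the ligand TGFB1 at 37.2, the follistatin-like protein FSTL1 at 35.9 and SMAD3 at 33.6. ID1, the only ID gene above the filter, was at 1.38 RPKM. Among the ligands, INHBA, the subunit of activin A, was at 20.0 RPKM, BMP4 at 10.8, TGFB2 at 5.45, BMP2 at 5.04 and TGFB3 at 0.316. Over all libraries TGFB1 and INHBA thus had the most RNA of the ligands, but BMP4 lay above INHBA in Jag1KO + ctrl (16.6 against 12.9 RPKM) and in siJag1 (12.1 against 10.5 RPKM). Among the SMADs, the BMP-type SMAD5 was at 12.9 RPKM and SMAD1 at 2.68, and TGFBR1, the type I receptor of TGF-beta, was at 13.8 RPKM.

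**Figure D1:**
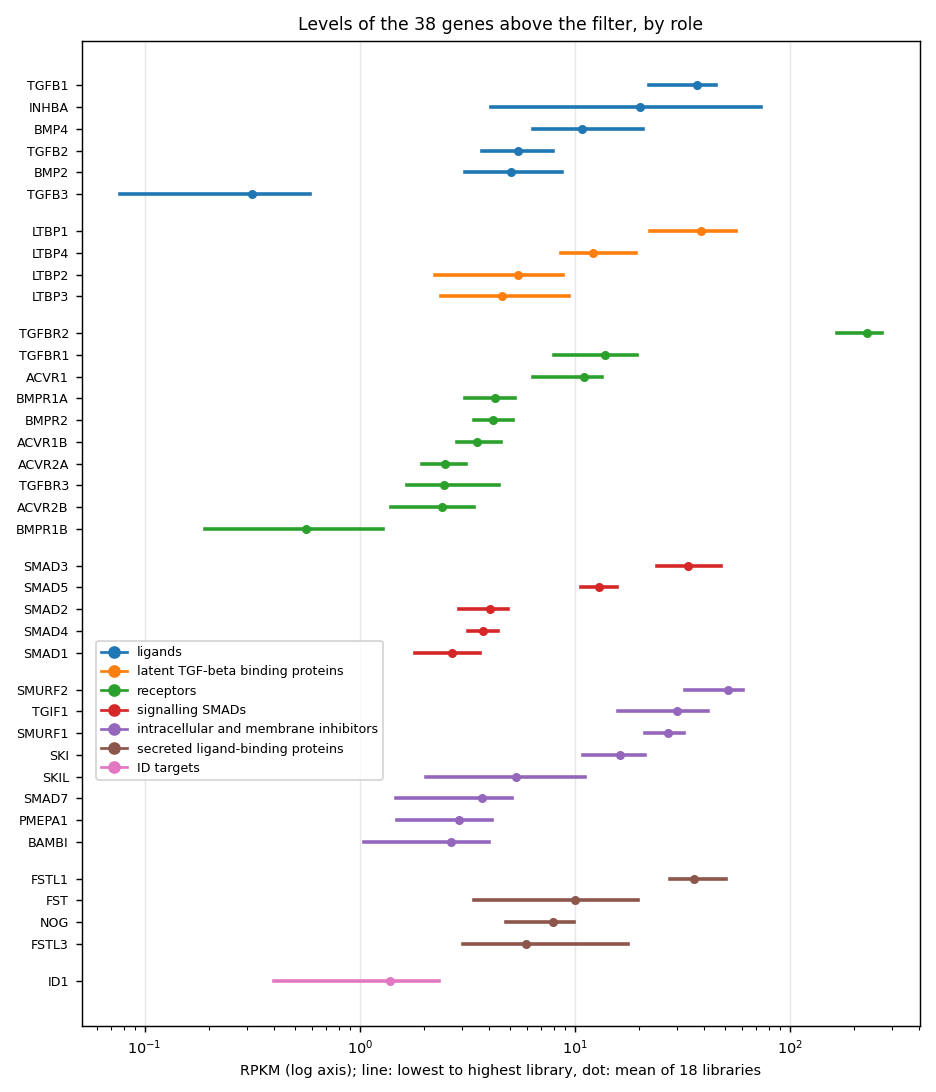
RPKM of the 38 genes above the filter on a log axis, grouped by role; the dot is the mean of 18 libraries and the line runs from the lowest to the highest library. TGFBR2 (mean 229 RPKM) lies above all others, and TGFB3 (0.316 RPKM) is the lowest ligand.

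Of the genes below the filter, all but INHBB were at or below 1.99 CPM in every library. SMAD6, an inhibitory SMAD, ranged from 0.0567 to 0.849 CPM, SMAD9 from 0.0699 to 1.20, ID2 from 0.0955 to 1.99 and ID3 from 0.0602 to 0.954 CPM. GREM1, a BMP antagonist, was at 0 in 12 libraries and at most 0.341 CPM in the others. INHBB, the subunit of activin B, was above 1 CPM in 5 libraries, between 0.212 and 5.94 CPM. Its mean in Jag1KO + ctrl was 3.66 CPM, above that of BAMBI (3.20 CPM), a gene above the filter.

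Across the 6 conditions the 38 genes above the filter differed in how much they varied. The ratio of the highest to the lowest condition mean was 1.17 for SKI, SMAD5 and SMAD4 and 1.20 for SMAD1, which were the steadiest. It was 5.14 for INHBA, 4.10 for FST, 2.85 for LTBP3, 2.75 for FSTL3, 2.72 for BMPR1B and 2.64 for SKIL. Below the filter it was 11.5 for INHBB. In the test for any difference among the 6 conditions, 11 of the 38 genes passed an FDR of 0.05, beside 8.34% of all genes tested. They were INHBA, LTBP1, LTBP3, LTBP4, TGFBR1, TGFBR3, ACVR1, SMAD2, SMAD3, FST and FSTL1. The lowest adjusted p was that of FST (0.000171), followed by LTBP3 (0.000745), SMAD3 (0.00241) and TGFBR1 (0.00253). Without the 5 libraries of highest cell cycle level, 3 genes passed, INHBA, LTBP3 and FST, beside 3.77% of all genes.

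**Figure D2:**
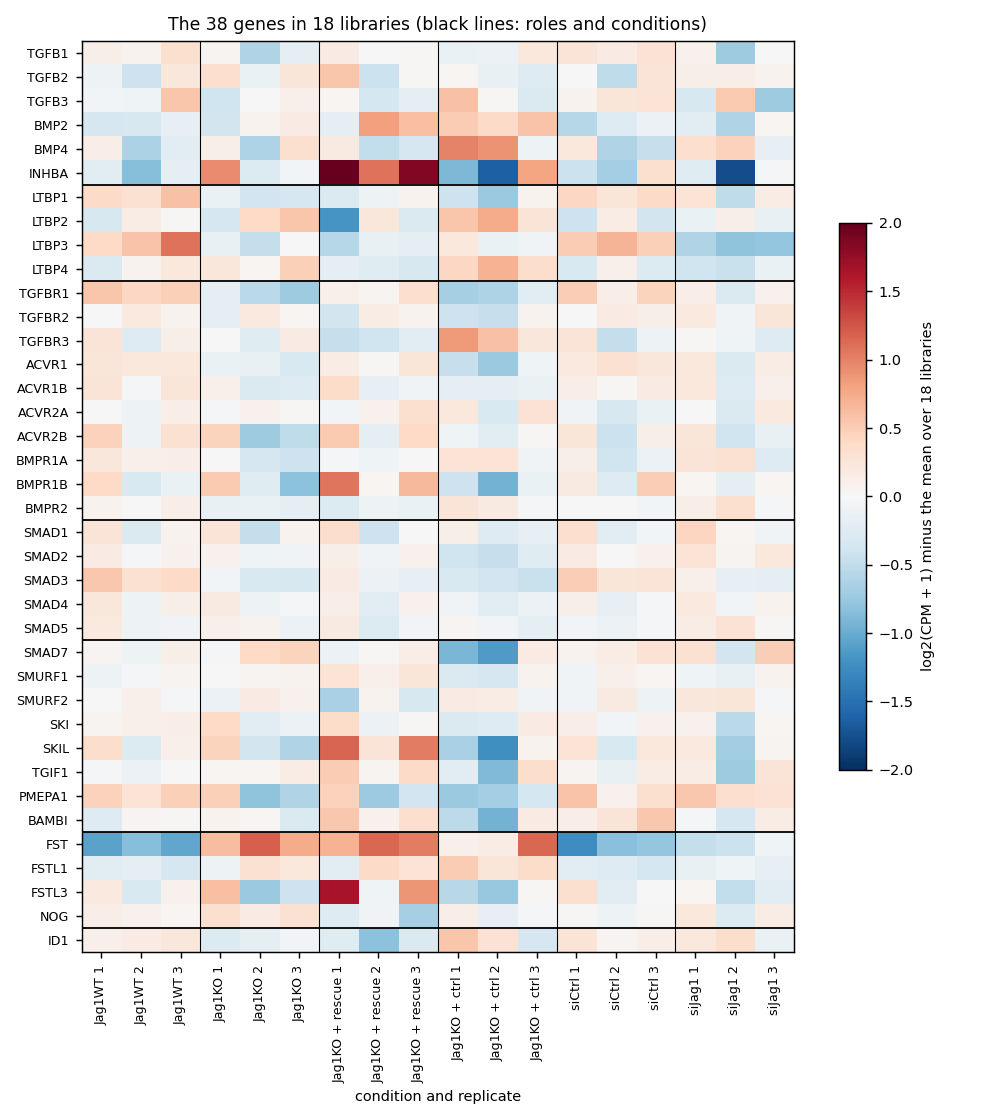
Heat map of log2(CPM + 1) minus the mean over 18 libraries for the 38 genes (rows, by role) in each library (columns, by condition and replicate); red is above and blue below the mean. INHBA and SKIL are reddest in Jag1KO + rescue, and FST is red in the 9 libraries of knockout cells and blue in the 9 of parental cells.

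A gene was called at an FDR below 0.05 and a fold change above 1.5. In Jag1WT against Jag1KO, which asks what the loss of JAG1 changed, 3 of the 38 genes were called, beside 0.666% of all genes tested. TGFBR1 and LTBP1 were higher with JAG1 and FST was lower. With all 18 libraries fitted, edgeR called 4 of the list in this pair, beside 128 of the 12757 genes. They were LTBP3, TGFBR1, SMAD3 and FST, without LTBP1. DESeq2 on the 6 libraries called 5, LTBP1, LTBP3, TGFBR1, SMAD3 and FST, beside 222 of all genes. In Jag1KO + rescue against Jag1KO + ctrl, which asks what came back with JAG1, no gene of the list was called, beside 0.00784% of all genes, a single gene that was JAG1. This 0 came from edgeR on the 6 libraries of the pair. There 14 of the 38 had an unadjusted p under 0.05, as had 3933 of all genes. On the same libraries DESeq2 called 6 of the list (LTBP4, TGFBR1, TGFBR3, BMPR1B, SKIL and FSTL3), beside 12.2% of all genes, and limma 0. With all 18 libraries fitted, edgeR called 10 of the list in the rescue, beside 2133 of the 12757 genes. They were INHBA, LTBP2, LTBP4, TGFBR1, TGFBR3, BMPR1B, SKIL, BAMBI, FSTL3 and ID1. In siCtrl against siJag1, LTBP3 was called higher, 1 of 38 beside 0.0157% of all genes. The mean over the 3 comparisons, fitted on all 18 libraries, called LTBP3 and TGFBR1 higher and FST lower, beside 0.933%.

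These counts depended on single libraries. Without Jag1KO + ctrl replicate 3, which had a low cell cycle level (4.76) against 6.38 and 6.84 in the other two of its condition, the rescue comparison called 14 of the 38 genes, beside 28.9% of all genes. Without the 5 libraries of highest cell cycle level, FST alone was called in Jag1WT against Jag1KO (0.29% of all genes) and in the mean over the 3 (0.282%), and 0 of the 38 in the rescue and in the siRNA pair. The median log2 fold change of the 38 genes was 0.07 for the knockout pair, 0.21 for the rescue pair and 0.02 for the siRNA pair, beside -0.01, -0.00195 and -0.00706 for all genes.

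**Figure D3:**
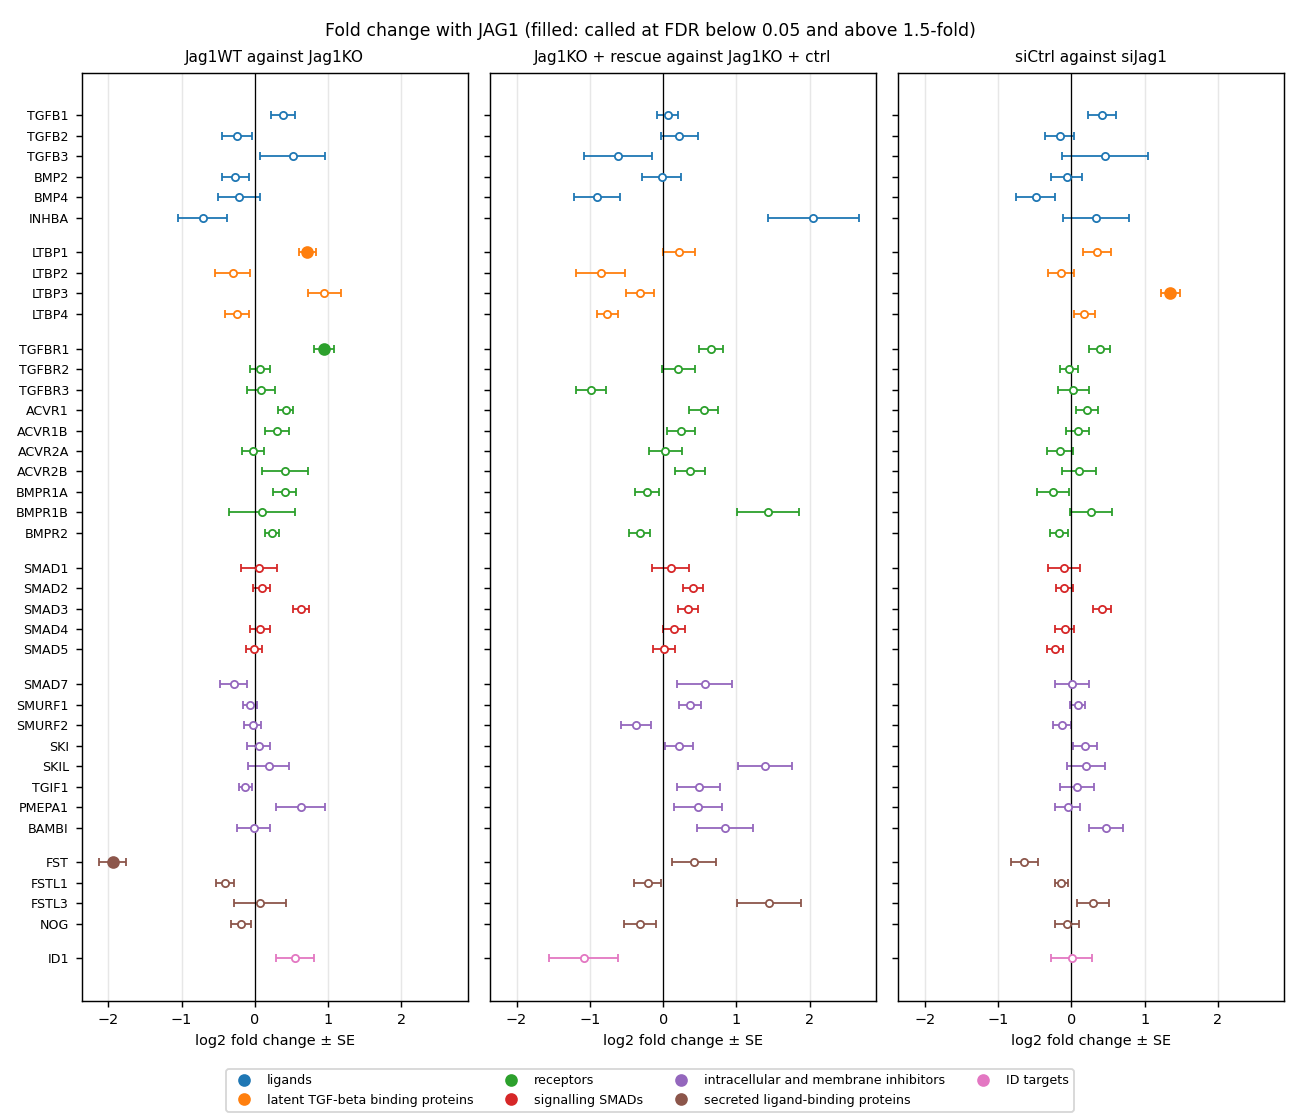
Log2 fold change with its standard error for the 38 genes, by role, with a panel each for the knockout pair, the rescue pair and the siRNA pair; positive values are higher with more JAG1, and filled points were called. TGFBR1, LTBP1 and FST are filled in the first panel, none in the rescue and LTBP3 in the siRNA panel.

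The 2 control comparisons, made between conditions with like JAG1, called none of the 38 genes. In Jag1KO + ctrl against Jag1KO, edgeR called 0.0% of all genes, 3 of the 38 had an unadjusted p under 0.05, and DESeq2, which called 0.0862% of all genes, and limma also called 0 of the 38. In siCtrl against Jag1WT it called 0.0% of all genes, 0 of the 38 had an unadjusted p under 0.05, and DESeq2 and limma called 0. These comparisons share libraries with the others and are not independent of them.

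Among the ligands, none was called in any of the 3 comparisons when each was fitted on its own 6 libraries. With all 18 libraries fitted, INHBA was called in the rescue, beside 2133 of the 12757 genes. TGFB1 was at 103, 98.8 and 118 CPM in Jag1WT and at 98.6, 62.0 and 83.8 in Jag1KO. It was at 106, 94.4 and 95.8 CPM in Jag1KO + rescue and at 85.7, 87.4 and 109 in Jag1KO + ctrl. It was at 113, 106 and 116 CPM in siCtrl and at 100.2, 57.1 and 94.9 in siJag1. The groups were apart in the knockout and siRNA pairs, by 0.38 ± 0.17 (adjusted p = 0.575) and 0.42 ± 0.19 (adjusted p = 0.968) on the log2 scale, and overlapped in the rescue. Its values in the 5 libraries of highest cell cycle level, 57.1 to 87.4 CPM, lay below those of the other 13, 94.4 to 118 CPM.

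INHBA showed another pattern and was looked at after its values were seen. It was at 27.8, 17.7 and 28.8 CPM in Jag1WT and at 63.5, 27.0 and 31.2 in Jag1KO. It was at 161, 70.3 and 120.0 CPM in Jag1KO + rescue and at 17.0, 9.89 and 57.0 in Jag1KO + ctrl. The rescue libraries were the 3 highest of all 18, with a log2 fold change of 2.05 ± 0.62 (adjusted p = 0.11), whereas the knockout comparison gave -0.72 ± 0.33 (adjusted p = 0.596), with overlapping groups. In siCtrl and siJag1 it was at 24.0, 20.1 and 41.0 and at 27.6, 8.87 and 31.8 CPM, which overlapped. INHBA passed the test for any difference among the 6 conditions (adjusted p = 0.039), and its exons overlap those of the antisense gene INHBA-AS1, whose reads cannot be told apart because the strand setting of the counting was not given. TGFB2, TGFB3, BMP2 and BMP4 gave no adjusted p below 0.05 in any comparison in the main fits. Without Jag1KO + ctrl replicate 3, BMP4 was called in the rescue (3693 of all genes called) and in the mean over the 3 (863). BMP2 passed the test for any difference with DESeq2 (2931 of all genes), with the replicate block (2857), without a filter (1082) and in some fits without 1 library.

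The latent TGF-beta binding proteins did not move together. LTBP1 (chr2:32946953-33399509), which anchors latent TGF-beta in the matrix, was at 313, 295 and 359 CPM in Jag1WT and at 216, 182 and 189 in Jag1KO. The groups were well apart, and the log2 fold change was 0.71 ± 0.12 (adjusted p = 0.0478). It was at 195, 223 and 251 CPM in Jag1KO + rescue against 179, 143 and 251 in Jag1KO + ctrl, and at 318, 283 and 311 in siCtrl against 289, 167 and 265 in siJag1. In the rescue the groups overlapped, and siCtrl replicate 2 lay below siJag1 replicate 1. The call was lost without any Jag1WT library and without Jag1KO replicate 2 or 3, with an adjusted p of up to 0.247. It was also lost with all 18 libraries fitted. Without the 5 libraries of highest cell cycle level, in the fit of the other 13, the log2 fold change was 0.57. In those 5 libraries LTBP1 was at 143 to 189 CPM and in the other 13 at 195 to 359. The part of the cell cycle level in the result was not tested.

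LTBP3 (chr11:65538559-65558930, minus strand), a further binding protein of latent TGF-beta, was at 30.0, 34.0 and 29.6 CPM in siCtrl and at 13.4, 11.6 and 11.8 in siJag1. This was a clear separation, with a log2 fold change of 1.35 ± 0.13 (adjusted p = 0.0489). It was at 27.7, 31.6 and 45.6 CPM in Jag1WT and at 18.7, 14.7 and 21.0 in Jag1KO, again apart, at 0.94 ± 0.23 (adjusted p = 0.182). Other fits did call LTBP3 in this pair. They were DESeq2 (222 of all genes called), all 18 libraries fitted (128), the replicate block (260) and leaving out Jag1KO replicate 1 (934). In the rescue the order was the other way, with 13.7, 18.7 and 18.2 CPM in Jag1KO + rescue below 24.2, 18.9 and 19.8 in Jag1KO + ctrl. The difference between the knockout and rescue effects was itself tested, at 1.28 ± 0.27 (adjusted p = 0.017), as was that between the rescue and siRNA effects, at -1.69 ± 0.27 (adjusted p = 0.0181). The first of these tests called 6.84% and the second 2.01% of all genes, and for LTBP3 they passed in 15 and 12 of the 18 fits without 1 library. The call in the siRNA pair was lost without siCtrl replicate 1, 2 or 3 or siJag1 replicate 1 or 3, with an adjusted p of up to 0.499, and with limma (adjusted p = 0.0614). Without the 5 libraries of highest cell cycle level it was 1.32 (adjusted p = 0.112).

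LTBP4 was at 58.8, 75.9 and 83.9 CPM in Jag1WT and at 84.5, 73.9 and 100.2 in Jag1KO, which overlapped. It was at 62.7, 60.9 and 57.6 CPM in Jag1KO + rescue and at 96.5, 118 and 91.8 in Jag1KO + ctrl, all lower with the rescue (log2 fold change -0.76 ± 0.14, adjusted p = 0.106). In siCtrl it was at 57.9, 77.4 and 59.5 and in siJag1 at 54.7, 52.8 and 65.7 CPM. The rescue effect was lower than the siRNA effect by the interaction test, at -0.96 ± 0.23 (adjusted p = 0.0469). This call was kept in 4 of the 18 fits without 1 library (adjusted p of up to 0.131) and lost with RLE normalization (adjusted p = 0.0506) and with limma (adjusted p = 0.0521). LTBP2, at 5.43 RPKM, was also lower in all 3 rescue libraries than in Jag1KO + ctrl, without a call (-0.85 ± 0.34, adjusted p = 0.143).

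Of the 10 receptors, edgeR on the 6 libraries of each pair called TGFBR1 alone in the JAG1 comparisons. With all 18 libraries fitted, it called TGFBR1, TGFBR3 and BMPR1B in the rescue, beside 2133 of the 12757 genes. TGFBR1 (chr9:99104038-99154192) was at 132, 119 and 125 CPM in Jag1WT and at 79.1, 61.2 and 54.5 in Jag1KO. It was at 96.2, 93.5 and 113 CPM in Jag1KO + rescue and at 56.4, 58.2 and 76.4 in Jag1KO + ctrl, so that the rescue libraries lay above their controls and below the parental cells. In siCtrl it was at 126, 97.9 and 122 CPM and in siJag1 at 98.5, 73.3 and 95.5, where siCtrl replicate 2 lay just below siJag1 replicate 1. The log2 fold change was 0.94 ± 0.14 (adjusted p = 0.0337) in the knockout pair, 0.66 ± 0.16 (adjusted p = 0.106) in the rescue and 0.38 ± 0.15 (adjusted p = 0.968) in the siRNA pair. Its mean over the 3 comparisons was 0.65 ± 0.09 (adjusted p = 0.00111), and this call was kept when any of the 18 libraries was left out. The call in the knockout pair alone was lost in 5 of 6 such fits, those without a Jag1WT library or without Jag1KO replicate 2 or 3, with an adjusted p of up to 0.202.

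TGFBR1 also followed the cell cycle level. In the 5 libraries of highest level it was at 54.5 to 73.3 CPM, and in the other 13 at 76.4 to 132. Without those 5 libraries the mean over the 3 comparisons was 0.43 (adjusted p = 0.0744) and the knockout pair gave 0.66 (adjusted p = 0.208). The part of the cell cycle level in the result was not tested. In all, 7 of the 38 genes, TGFB1, LTBP1, TGFBR1, ACVR1, ACVR1B, SKIL and FSTL3, were lower in all 5 libraries than in any of the other 13, a pattern that 4.7% of all genes showed. None of the 38 was higher in all 5, a pattern of 5.68% of all genes. Fewer cells of a kind and less RNA per cell cannot be told apart in such bulk libraries.

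**Figure D4:**
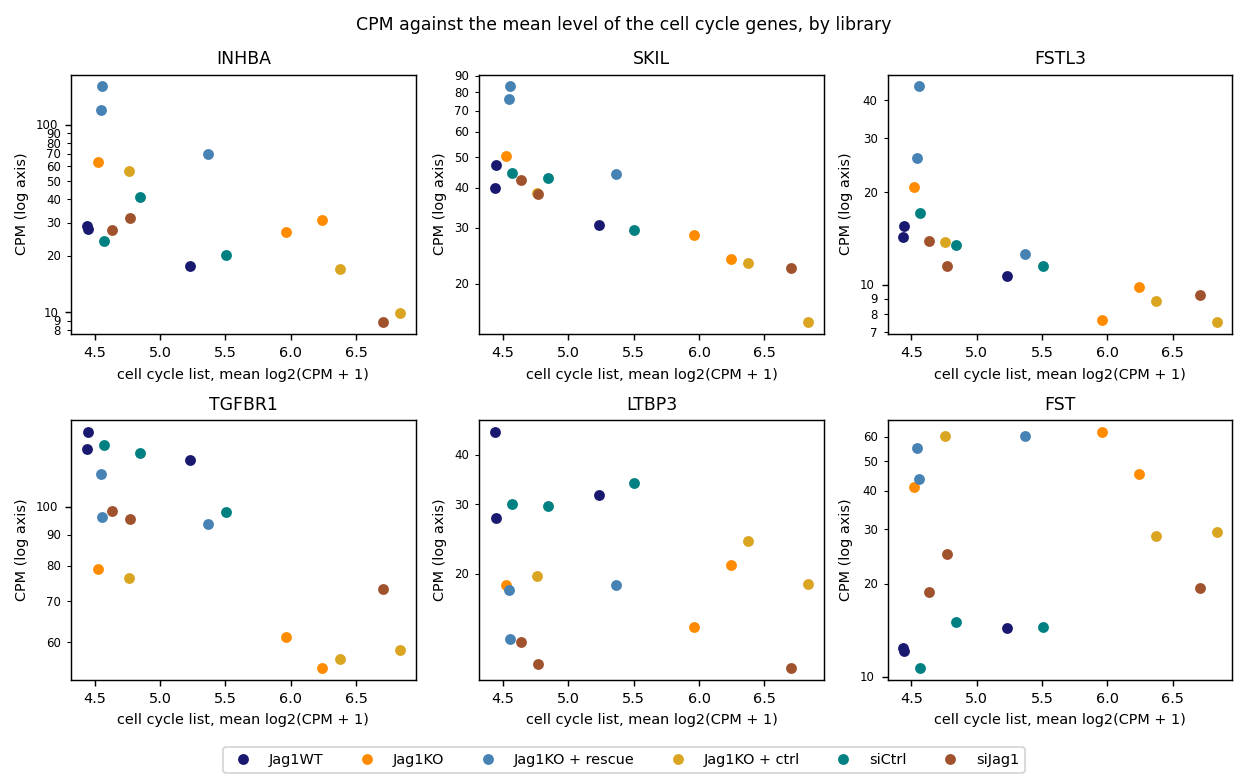
CPM (log axis) of INHBA, SKIL, FSTL3, TGFBR1, LTBP3 and FST against the mean log2(CPM + 1) of 21 cell cycle genes, 1 point per library, coloured by condition. The 5 libraries at 5.96 to 6.84 lie below all others for TGFBR1 (54.5 to 73.3 CPM), SKIL and FSTL3, and among the others for LTBP3 and FST.

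ACVR1, a type I receptor of BMP and activin, was at 51.3, 50.2 and 50.6 CPM in Jag1WT and at 39.3, 39.2 and 35.0 in Jag1KO. It was at 48.2, 44.3 and 51.4 CPM in Jag1KO + rescue and at 31.1, 25.5 and 40.9 in Jag1KO + ctrl. It was at 49.6, 53.5 and 51.0 CPM in siCtrl and at 50.5, 35.2 and 48.1 in siJag1, where 1 siJag1 library lay well below the rest. Over the 3 comparisons the mean was 0.39 ± 0.08 (adjusted p = 0.0346), past the FDR but short of the fold. TGFBR2 overlapped in all 3 comparisons, at 1098, 1260.3 and 1158 CPM in Jag1WT and 968, 1257 and 1126 in Jag1KO. Its rescue libraries were at 853, 1225 and 1153 CPM against 823, 802 and 1159 in Jag1KO + ctrl, and siCtrl at 1092, 1232 and 1197 against 1267, 1046 and 1306 in siJag1. The mean log2 fold change of TGFBR2 over the 3 comparisons was 0.07 ± 0.09.

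TGFBR3, the co-receptor betaglycan, was at 11.7, 12.2 and 14.2 CPM in Jag1KO + rescue and at 30.6, 25.1 and 19.5 in Jag1KO + ctrl (log2 fold change -0.98 ± 0.20, adjusted p = 0.106). It was at 19.9, 13.7 and 18.1 CPM in Jag1WT and at 16.4, 13.8 and 18.6 in Jag1KO, which overlapped, as did 19.8, 11.5 and 15.2 in siCtrl and 16.8, 15.5 and 13.6 in siJag1. The knockout and rescue effects differed by 1.09 ± 0.30 (adjusted p = 0.0403), a call kept in 7 of the 18 fits without 1 library (adjusted p of up to 0.128). BMPR2, a type II receptor of BMP, was at 52.4, 50.4 and 54.8 CPM in Jag1WT above 45.2, 45.3 and 43.4 in Jag1KO. In the rescue it was at 41.0, 46.7 and 45.5 CPM, below 60.1, 56.8 and 48.7 in Jag1KO + ctrl. In siCtrl it was at 49.5, 50.5 and 48.0 and in siJag1 at 55.2, 62.7 and 49.0 CPM. The knockout and rescue effects on BMPR2 differed by 0.58 ± 0.15 (adjusted p = 0.0374), a call kept in 6 of 18 such fits (adjusted p of up to 0.111). BMPR1B, a low BMP receptor looked at after its values were seen, was at 7.63, 3.25 and 5.45 CPM with the rescue and at 2.10, 1.14 and 2.77 in Jag1KO + ctrl (1.43 ± 0.42, adjusted p = 0.108).

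SMAD3 (chr15:67063763-67195173) was the gene whose groups were apart in all 3 comparisons. It was at 348, 296 and 312 CPM in Jag1WT and at 231, 193 and 191 in Jag1KO. It was at 269, 221 and 215 CPM in Jag1KO + rescue and at 193, 184 and 176 in Jag1KO + ctrl. It was at 337, 283 and 286 CPM in siCtrl and at 258, 213 and 209 in siJag1. Every library with high JAG1 lay above every library of its JAG1-low partner, which held for 1 of the 38 genes and for 0.29% of all genes, and no gene of the 38 was lower in this way, beside 0.259%. The log2 fold change was 0.63 ± 0.11 (adjusted p = 0.0692), 0.34 ± 0.14 (adjusted p = 0.148) and 0.42 ± 0.12 (adjusted p = 0.968) in the knockout, rescue and siRNA pairs. Other fits did call SMAD3 in the knockout pair. They were DESeq2 (222 of all genes called), all 18 libraries fitted (128), no filter (157), the replicate block (260) and leaving out Jag1KO replicate 1 (934). Averaged over the 3 comparisons the log2 fold change of SMAD3 was 0.46 ± 0.07 (adjusted p = 0.00229), past the FDR but short of the 1.5-fold change. It was 0.41 without the 5 libraries of highest cell cycle level.

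The other signalling SMADs above the filter varied less between conditions. SMAD2, the partner of SMAD3 in TGF-beta and activin signalling, was at 48.5, 42.2 and 47.5 CPM in Jag1KO + rescue and at 33.8, 32.1 and 37.7 in Jag1KO + ctrl (0.41 ± 0.14, adjusted p = 0.12). In Jag1WT it was at 50.3, 43.6 and 47.3 and in Jag1KO at 47.6, 42.2 and 42.4 CPM, and in siCtrl at 50.4, 44.2 and 47.5 against 54.3, 46.5 and 51.9 in siJag1. Jag1KO + ctrl was thus the low condition, and SMAD2 passed the test for any difference (adjusted p = 0.0278).

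**Figure D5:**
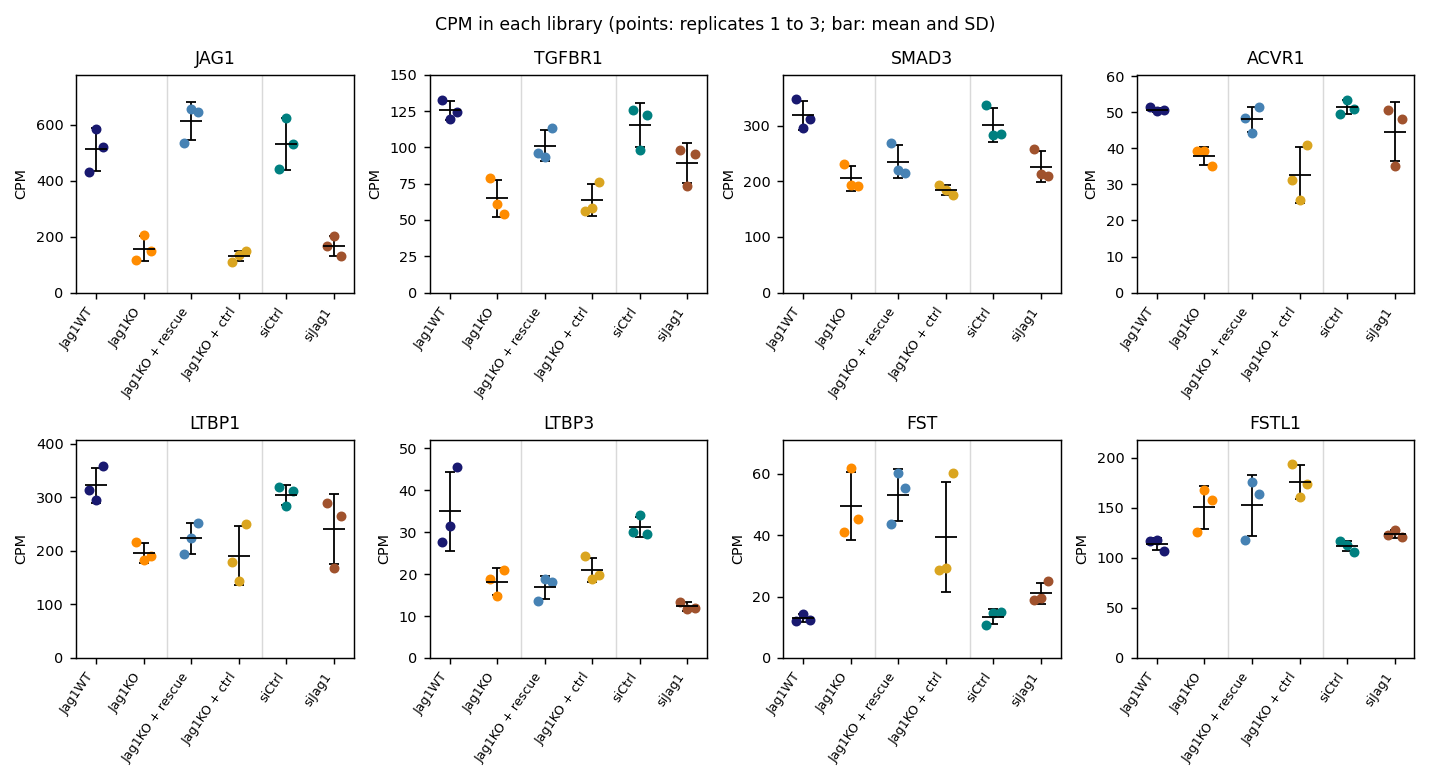
CPM of JAG1, TGFBR1, SMAD3, ACVR1, LTBP1, LTBP3, FST and FSTL1 in each of the 18 libraries (points, replicates 1 to 3) with the mean and SD of each condition (bars). SMAD3 is higher in each JAG1-high condition than in its partner, LTBP3 is lower in Jag1KO + rescue than in Jag1KO + ctrl, and FST is at 28.7 to 62.1 CPM in all 9 libraries of knockout cells.

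None of the 8 tested intracellular and membrane inhibitors was called by edgeR on the 6 libraries of a pair. There 0, 2 and 0 of them had an unadjusted p under 0.05 in the knockout, rescue and siRNA pairs. DESeq2 called SKIL in the rescue. With all 18 libraries fitted, edgeR called SKIL and BAMBI there, beside 2133 of the 12757 genes. SMURF2, the most abundant inhibitor per length, was at 320.1, 344 and 317 CPM in Jag1WT and at 297, 361 and 341 in Jag1KO. It was at 204, 337 and 256 CPM in Jag1KO + rescue against 360.4, 356 and 307 in Jag1KO + ctrl, and at 306, 364 and 300.4 in siCtrl against 374, 381 and 313 in siJag1. The groups overlapped in all 3 comparisons. SKIL, a co-repressor of SMADs that TGF-beta and activin induce, was looked at after its values were seen. It was at 83.5, 44.3 and 75.9 CPM with the rescue and at 23.3, 15.2 and 38.7 in Jag1KO + ctrl, apart by 1.39 ± 0.36 (adjusted p = 0.106). In Jag1WT and Jag1KO it was at 47.2, 30.5 and 39.8 and at 50.5, 28.4 and 23.9 CPM, and in siCtrl and siJag1 at 44.6, 29.5 and 42.9 and at 42.4, 22.3 and 38.2 CPM, which overlapped. SKIL was at 15.2 to 28.4 CPM in the 5 libraries of highest cell cycle level and at 29.5 to 83.5 in the other 13, and without those 5 its rescue effect was 0.78 (adjusted p = 0.472).

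Of the secreted ligand-binding proteins, FST (chr5:53480626-53487134), which encodes follistatin and binds activin, was called. It was at 12.1, 14.4 and 12.4 CPM in Jag1WT and at 41.2, 62.1 and 45.4 in Jag1KO. This was the largest absolute fold change of the 3 calls in that pair, at -1.94 ± 0.19 on the log2 scale (adjusted p = 0.00609). The call was lost without Jag1WT replicate 1 or 3, with an adjusted p of up to 0.0775, and was kept at -1.67 (adjusted p = 0.00594) without the 5 libraries of highest cell cycle level. In siCtrl it was at 10.7, 14.5 and 15.1 CPM, below 18.8, 19.4 and 25.0 in siJag1 (-0.64 ± 0.19, adjusted p = 0.968). In the rescue it stayed high, at 43.8, 60.3 and 55.3 CPM against 28.7, 29.5 and 60.2 in Jag1KO + ctrl, and the groups overlapped. All 9 libraries of knockout cells, with or without the JAG1 plasmid, held 28.7 to 62.1 CPM of FST, and all 9 of parental cells 10.7 to 25.0 CPM. The share of all genes that separate these libraries in this way was not counted, so the pattern is not shown to be particular to FST.

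The knockout and rescue effects on FST differed by -2.34 ± 0.36 on the log2 scale (adjusted p = 0.00433), and this call was kept when any of the 18 libraries was left out. Its mean over the 3 comparisons was -0.73 ± 0.15 (adjusted p = 0.0224). It lost its call without Jag1WT replicate 1, Jag1KO replicate 2, Jag1KO + rescue replicate 1 or siCtrl replicate 1 through the FDR (adjusted p of up to 0.0598), and without Jag1KO + ctrl replicate 3 through its size (-0.58). Likewise LTBP3, at 0.65 ± 0.11 in this mean (adjusted p = 0.00626), fell short of the fold without Jag1WT replicate 3 (0.57). This mean joins comparisons whose effects on these 2 genes differed.

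FSTL1, the most abundant of this group per length, was at 117, 118 and 107 CPM in Jag1WT and at 126, 168 and 157 in Jag1KO. It was at 117, 176 and 164 CPM with the rescue against 194, 160.4 and 174 in Jag1KO + ctrl, and at 117, 113 and 106 in siCtrl against 122, 128 and 121 in siJag1. It was lower with JAG1 in the knockout and siRNA pairs without a call (-0.41 ± 0.13, adjusted p = 0.373, and -0.14 ± 0.09, adjusted p = 0.968). FSTL3, which like follistatin binds activin and was looked at after its values were seen, was at 44.4, 12.6 and 25.8 CPM with the rescue and at 8.81, 7.55 and 13.7 in Jag1KO + ctrl (1.45 ± 0.44, adjusted p = 0.111). These groups overlapped. Without Jag1KO + ctrl replicate 3 the rescue comparison called 14 genes of the list, beside 28.9% of all genes. Among them were INHBA (3.12, adjusted p = 0.00355), SKIL (1.82, adjusted p = 0.00711), FSTL3 (1.75, adjusted p = 0.0308) and FST (0.87, adjusted p = 0.0121). Jag1KO + ctrl then kept replicates 1 and 2, both among the 5 libraries of highest cell cycle level (6.38 and 6.84). The rescue libraries were at 4.55 to 5.37, so JAG1 and the cell cycle level cannot be told apart in this fit.

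ID1, a helix-loop-helix protein and BMP target, was at 1.83, 1.95 and 2.09 CPM in Jag1WT above 1.17, 1.31 and 1.53 in Jag1KO (0.55 ± 0.26, adjusted p = 0.601). In the rescue it was at 1.23, 0.495 and 1.17 CPM against 2.88, 2.22 and 1.08 in Jag1KO + ctrl, and in siCtrl and siJag1 at 2.19, 1.75 and 1.90 and at 2.04, 2.38 and 1.40 CPM. No consistent order with JAG1 was seen.

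By groups apart alone, 9 of the 38 genes were higher in all Jag1WT than in all Jag1KO libraries (7.2% of all genes) and 4 were lower (6.53%). The 9 were TGFB1, LTBP1, LTBP3, TGFBR1, ACVR1, BMPR1A, BMPR2, SMAD3 and ID1. In the rescue 8 were higher (16.6% of all genes) and 5 lower (15.9%). In the siRNA pair 3 were higher (5.16%) and 3 lower (5.36%). The effects of the knockout and of the siRNA differed for none of the 38 genes (edgeR, 4 with an unadjusted p under 0.05, limma 0), beside 0.125% of all genes.

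Other genes of the pathway were read from lists of further ligands, receptors, activators of latent TGF-beta, antagonists, SMAD regulators and TGF-beta response genes. Among 11 tested genes of latent TGF-beta activation, BMP1, a protease that cleaves procollagen and LTBP1, was called in the knockout pair (0.86 ± 0.13, adjusted p = 0.0337). It was at 35.6, 34.7 and 40.3 CPM in Jag1WT and at 21.7, 19.8 and 19.4 in Jag1KO, and at 43.8, 41.5 and 37.7 in siCtrl against 25.9, 24.1 and 22.9 in siJag1. The rescue pair overlapped, at 21.9, 20.9 and 19.9 against 21.3, 22.8 and 19.4 CPM (-0.03 ± 0.15). The call was lost without any Jag1WT library or without Jag1KO replicate 2 or 3 (adjusted p of up to 0.216), and was 0.76 (adjusted p = 0.124) without the 5 libraries of highest cell cycle level. The integrin chain ITGB8, which binds latent TGF-beta, was lower with JAG1 in the mean over the 3 (-1.14 ± 0.27, adjusted p = 0.0484), a call lost without 13 of the 18 libraries in turn (adjusted p of up to 0.118), with limma (adjusted p = 0.0569) and without the 5 libraries of highest cell cycle level (-0.44, adjusted p = 1.00). It was at 2.15, 1.28 and 3.13 CPM in Jag1WT and at 1.96, 3.24 and 4.20 in Jag1KO, which overlapped. With the rescue it was at 0.818, 1.48 and 1.58 CPM, below 4.26, 5.57 and 2.47 in Jag1KO + ctrl, and in siCtrl at 1.98, 2.56 and 1.75, below 2.89, 8.54 and 3.29 in siJag1.

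Of 3 tested antagonists outside the main list, the BMP antagonist CHRDL1 was lower with JAG1 in the mean over the 3 (-0.75 ± 0.15, adjusted p = 0.0191). It was at 26.6, 30.0 and 34.6 CPM in Jag1WT and 35.5, 46.6 and 57.9 in Jag1KO, and at 19.2, 30.0 and 28.4 with the rescue and 71.1, 68.8 and 48.7 in Jag1KO + ctrl. In siCtrl and siJag1 it was at 27.9, 38.1 and 31.0 and at 31.9, 55.5 and 32.3 CPM, which overlapped. The call was lost without Jag1KO replicate 3 (adjusted p = 0.0513) and without the 5 libraries of highest cell cycle level (-0.38, adjusted p = 0.668). Among 20 tested TGF-beta response genes, 17 were positive in this mean, with a median log2 fold change of 0.25 beside -0.01 for all genes, of which 48.9% were positive. In this mean 9 of the 20 had an unadjusted p under 0.05, as had 26.6% of all genes, and 1 was called. The list was chosen with earlier results of these data known, so these counts are no test of a TGF-beta response. All 21 cell cycle genes were negative in the same mean, each with an unadjusted p under 0.05, and their part in the result was not tested. The called TGF-beta response gene was SPHK1, a sphingosine kinase, at 1.00 ± 0.11 (adjusted p = 0.000196). This call was kept when any of the 18 libraries was left out. Without the 5 libraries of highest cell cycle level the effect on SPHK1 was 1.01. It was at 8.90, 12.8 and 7.63 CPM in Jag1WT, 5.02, 5.41 and 4.68 in Jag1KO, 10.4, 8.70 and 7.21 with the rescue, 4.44, 3.83 and 4.09 in Jag1KO + ctrl, 12.6, 11.1 and 10.8 in siCtrl and 5.39, 5.79 and 6.22 in siJag1. SPHK1 was thus higher with JAG1 in all 3 pairs. Of 6 further ligands, 3 further receptors and 23 further SMAD regulators tested, none was called in a single comparison or in the mean by edgeR, where 0, 1 and 5 had an unadjusted p under 0.05 in the mean.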

How the data were processed

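RNA from 18 libraries of MDA-MB-231 spheroids, 3 in each of 6 conditions, was analysed. The authors prepared stranded mRNA libraries from 300 ng of RNA, aligned the reads to hg38 and deposited unnormalised read counts per gene. The aligner and the strand setting of the counting are not given in the sources used here. The submitters' processing notes name MultiQC 1.5, R 3.6.1, featureCounts and edgeR 3.28.0. The deposited CPM signal was checked to be these counts scaled to library size after TMM normalization. The deposited RPKM are this CPM divided by 1 length per gene, which was used to compare levels between genes. Of the RPKM columns, 3 matched no sample and were not used.

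The counts were tested with edgeR 4.0.16 (quasi-likelihood test, TMM, R 4.3.3) on the 6 libraries of each comparison, with Benjamini-Hochberg adjustment over 12757 genes above 1 CPM in at least 9 libraries. A call needed an FDR under 0.05 and a change of more than 1.5-fold. The mean over the 3 comparisons, the test for any difference and the differences between effects, called at an FDR below 0.05 alone, came from a fit of all 18 libraries. Standard errors are those of the log2 fold change. The code was tested on simulated counts. Figures and summaries were made with Python 3.11.15, numpy 2.4.6, pandas 2.3.3 and matplotlib 3.10.9.

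Depth was 10330581 to 18327890 reads on genes, and 292 genes without symbol took at most 0.0442% of the reads. The members and lists were chosen with earlier results of these data known. Named with values in every library are genes called in a comparison or in a difference between effects and the highest gene per length of each role, and for the other lists those called in a single comparison or in the mean. INHBA, SKIL, FSTL3, BMPR1B and the other genes named outside this rule were chosen after their values were seen.

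The pairing by replicate number was checked across genes, by correlating how far same-numbered libraries lie from the mean of their condition. The correlations were 0.544, 0.523 and 0.264 between siCtrl and siJag1, which pair, as do siCtrl and Jag1WT at 0.597, 0.715 and 0.213. Between Jag1WT and Jag1KO they were 0.634, 0.670 and -0.010, and the numbers were not taken to pair there or in the other comparisons. Where the numbers pair, the values given are still from the fit without a replicate block unless the block is named. Alternatives were RLE normalization, DESeq2 1.42.0, limma 3.58.1 on log2(CPM + 1), other filters, all 18 libraries fitted, a replicate block and each library left out. Leaving out the 5 libraries of highest cell cycle level was added after the data were seen, and used a fit of the other 13 libraries for every comparison. Gene positions are from GENCODE 44 (hg38), and the sequences before gene starts from RefSeq (GRCh38.p14).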

Additional observations from a re-analysis of the deposited data

Results flagged for a closer look

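In all, 6 differences between the effects of JAG1 in 2 comparisons passed an FDR of 0.05 in the fit of all 18 libraries (edgeR), 4 of the 38 genes for knockout less rescue, beside 6.84% of all genes, and 2 for rescue less siRNA, beside 2.01%. The effect of the knockout pair less that of the rescue was 1.28 for LTBP3, 1.09 for TGFBR3, 0.58 for BMPR2 and -2.34 for FST on the log2 scale. The adjusted p was 0.017, 0.0403, 0.0374 and 0.00433. The effect of the rescue less that of the siRNA pair was -1.69 for LTBP3 (adjusted p = 0.0181) and -0.96 for LTBP4 (adjusted p = 0.0469). The LTBP3 difference between knockout and rescue was lost without Jag1WT replicate 3, Jag1KO replicate 2 or Jag1KO + ctrl replicate 1, with an adjusted p between 0.0520 and 0.0602. That of FST passed in each of the 18 fits without 1 library, that of TGFBR3 in 7 and that of BMPR2 in 6, with an adjusted p of up to 0.128 and 0.111. Of the differences between rescue and siRNA, that of LTBP3 passed in 12 of these fits (adjusted p of up to 0.0785) and that of LTBP4 in 4 (up to 0.131).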

How the results depend on the processing

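Of the single-gene values recomputed under the alternatives, 577 kept their direction and side of the threshold, 110 lost and 28 gained a call, and 2 reversed. The 2 reversals were in the rescue without the 5 libraries of highest cell cycle level, LTBP1 at -0.19 and FST at -0.21, neither of them called before or after. The count of 3 called genes in Jag1WT against Jag1KO became 5 with the replicate block, 5 with DESeq2 and 1 without those 5 libraries, and 0 to 7 with a library left out. The rescue went from 0 to 6 with DESeq2, 10 with all 18 libraries fitted and 0 to 14 with a library left out. The siRNA pair went from 1 to 0 with limma, to 0 without the 5 libraries and to between 0 and 1 with a library left out. Jag1KO + ctrl against Jag1KO gave 0 to 1. The 1 was SMAD7, without Jag1KO + ctrl replicate 3, beside 294 of the 12757 genes. In siCtrl against Jag1WT the count was 0 throughout. The mean over the 3 gave 1 without the 5 libraries and 2 to 7 with a library left out, and the test for any difference 3 and 5 to 19. The differences between knockout and rescue effects went from 4 to 8 with the replicate block and to between 1 and 12 with a library left out. Those between rescue and siRNA effects went from 2 to 1 with RLE, 1 with limma, 6 with the replicate block and 0 to 10 with a library left out. The highest leave-one-out count of the rescue, the mean, the test for any difference and both of these interactions came without Jag1KO + ctrl replicate 3. Of all 12757 genes, leaving it out called 3693, 863, 3430, 2884 and 2422 in that order. With the replicate block the interactions called 1933 and 1141 of all genes. The 7 genes in Jag1WT against Jag1KO came without Jag1KO replicate 1, beside 934 of all genes. Over all genes, Jag1WT against Jag1KO called 85 and, with the block, 260, with DESeq2 222 and without a filter 157. With all 18 libraries fitted that pair called 4 genes of the list and 128 of all genes, and without a filter 4 of the list. The rescue called 1 and, with DESeq2, 1552, and with all 18 libraries 2133. The siRNA pair called 2 and, with DESeq2, 24, with the block 4 and without a filter 8. The cause of these changes was not tested. DESeq2 was not run for the differences between effects. In siCtrl against siJag1, whose numbers pair, the replicate block changed the call of JAG1 (1.69, adjusted p = 0.0189) and of no other named gene. In the pairs whose libraries share only a number, SMAD3 in Jag1WT against Jag1KO had an adjusted p of 0.00877 with the block. Depth limits the 6 genes below the filter: 3 reads, the most a count of 0 allows, stand for 0.189 CPM in Jag1WT replicate 1, and this covers counting error only.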

Other observations

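INHBB, the subunit of activin B, was below the filter and was tested only where no filter was set. There edgeR called it lower with JAG1 in the mean over the 3 comparisons, at -1.47 ± 0.29 on the log2 scale (adjusted p = 0.0130), and it passed the test for any difference (adjusted p = 0.000232). In the rescue pair it was at -3.44 ± 0.57 (adjusted p = 0.0503). It was read at 5.94, 3.60 and 1.44 CPM in Jag1KO + ctrl and at 0.273, 0.212 and 0.469 CPM in Jag1KO + rescue. In Jag1KO it was at 1.17, 1.16 and 0.955 CPM and in Jag1WT at 0.757, 0.376 and 0.587 CPM. In siCtrl it was at 0.849, 0.405 and 0.533 and in siJag1 at 0.680, 0.703 and 0.420 CPM. Jag1KO + ctrl thus held its highest values, and Jag1KO + rescue, where INHBA was highest, its lowest.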
